A study of Mus musculus with 17 samples.

Results

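DA1-3b cells carrying residues 1-361 of the transcription factor p65 were compared with DA1-3b cells carrying residues 362-549, the pieces left when p65 is cut after residue 361. Members were chosen by source name alone: 3 arrays are named exactly 1-361 and 3 exactly 362-549, so 6 of the 17 arrays of the series entered the comparison. DA1-3b is a murine Bcr-Abl+ leukaemia line, labelled as mouse strain C3H eOuJ, grown in DMEM with serum and transfected with a plasmid for each form of p65. The other arrays hold full-length p65 (WT, 4 arrays), the D361E point mutant described as non-cleavable (4 arrays) and both fragments together (1-361+362-549, 3 arrays). Every group carried a p65 plasmid and the host's own Rela gene, the labels giving no deletion. Cells with the void plasmid were not analysed here, so a difference below says how the fragments differ from each other and not which of them moved from an untransfected state. The labels give no promoter, no time after transfection and no number of clones or cultures, and a p-value here reflects only how far arrays of 1 group lie apart, which can be technical.

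p65, encoded by Rela, is the main activating subunit of NF-κB, a family of dimeric transcription factors held in the cytoplasm by inhibitors of the IκB class until a kinase complex marks these for destruction. Its N-terminal Rel homology domain binds DNA, pairs with other subunits and contacts IκB, and its C-terminal part holds the transactivation domains. The N-terminal fragment therefore keeps DNA binding without most of the activating part, and the C-terminal fragment keeps the activating part without DNA binding. In myeloid cells NF-κB is known for inducing cytokines, chemokines, its own inhibitors and survival genes.

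Each array gave 1 colour (Cy3) over 39429 probes. A level below is the log2 processed signal minus the 75th percentile of its array, so 0 is the level of that percentile, and 15254 genes were tested. The 75th percentile lay between 643 and 877 intensity units with 1-361 and between 636 and 700 with 362-549, and 19429 to 20358 probes an array were well above background. Arrays of 1 group correlated at 0.986 to 0.989 (1-361) and 0.980 to 0.987 (362-549) across the genes tested, and arrays of different fragments at 0.977 to 0.990. The leukocyte antigen gene Ptprc (1.35 ± 0.34 and 1.59 ± 0.42, SD, n = 3 each) and the progenitor factor Myb (2.09 ± 0.36 and 2.28 ± 0.34) were present with both fragments, as were the myeloid integrin Itgam (3.66 ± 0.35 and 3.62 ± 0.26) and the myeloid factor Spi1 (-1.67 ± 0.27 and -1.98 ± 0.34). The fragments share 1 slide (1-361 replicate 3 and 362-549 replicate 2), and the running numbers in the sample titles fall into rounds, 3 of which hold 1 array of each fragment. Replicates 1, 2 and 3 belong to rounds 2, 3 and 1 with 1-361 and to rounds 1, 2 and 3 with 362-549. Array values below are listed by replicate, so they do not pair in the order given.

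The fragments differed at few genes, and the differences ran both ways. In limma's moderated test with Benjamini-Hochberg adjustment, 96 genes were called at an adjusted p under 0.05, which is 0.629% of those tested. Of these, 61 were higher with 1-361 (0.4%) and 35 were higher with 362-549 (0.229%), and an unadjusted p under 0.05 was reached by 844 genes. The called genes had a median difference of 1.62 on the log2 scale where 1-361 was higher and 1.497 where 362-549 was higher, and 46 and 22 of them passed a 2-fold difference. In 20 and 10 of them the lower fragment was not well above background on any of its 3 arrays, so for these the size is given as a lower bound. Over all genes the 3 arrays of 1 fragment lay wholly above the 3 of the other for 1605 genes (10.5%), a share that includes all 96 called.

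With the title round as a block, which removes shifts common to arrays of the same round, 260 genes were called (1.7%), 138 higher with 1-361 (0.905%) and 122 higher with 362-549 (0.8%), and 95 of the 96 were among them. With the slide as a fixed block 35 genes were called (0.229%), 34 of them among the 96. Within the 1 shared slide the median size of the 96 was 1.46 against 1.56 over all 6 arrays. Their direction there is no check, because the fragments' arrays do not overlap at any of the 96. With 1 array left out at a time, the count lay between 48 and 67, and 39 of the 96 genes were called each time. With normexp background correction in place of the scanner software's, 13 of the 96 genes and no others were called (0.0852%), and the direction held for 95 of the 96. Among genes named below, these were Clec4e, Epb41l3, Fcer1g, Gmfg, Hbb-b2, Hbb-bt, Lilr4b, Nsd1, Nupr1, Pf4 and Podnl1. The other calls of the main fit named below were lost with that correction.

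**Figure D1:**
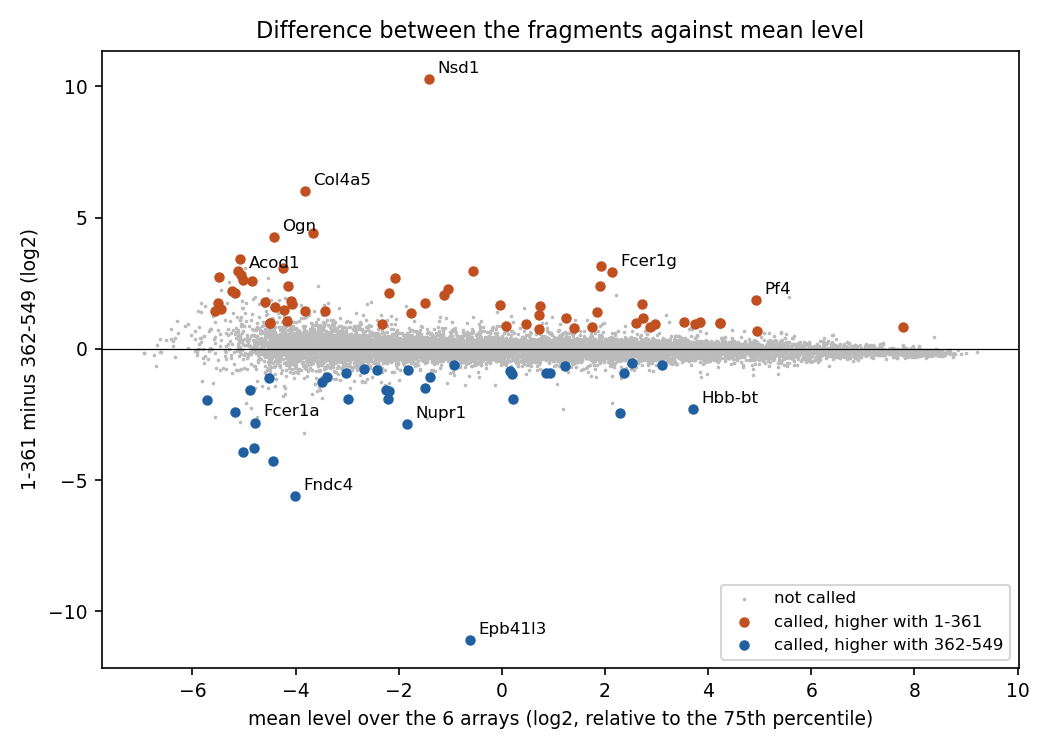
Difference between the fragments (1-361 minus 362-549, log2) against the mean level over the 6 arrays (log2, relative to the 75th percentile of each array), 1 point for each of 15254 genes. Orange points are the 61 called genes higher with 1-361 and blue points the 35 higher with 362-549; Nsd1 and Epb41l3 lie farthest from 0.

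Rela itself did not separate the fragments, though its probe cannot say which construct was present. Its level was 4.73, 4.82 and 4.80 with 1-361 and 4.80, 4.86 and 4.82 with 362-549, a difference of -0.04 ± 0.11 (SE; adjusted p = 1 by limma). The probe lies at chr19:5648070-5648129 (build mm9), and its place relative to residues 1-361 and 362-549 of the reading frame was not looked up, so it does not check the labels. Of 41 tested genes for NF-κB subunits, kinases, inhibitors and adaptors none was called, against 0.629% of all genes. The list's median difference was 0.01 against -0.01 over all genes. In 3 of the 41 the fragments' arrays did not overlap, against 10.5% of all genes. Nfkb1, the gene of the p105/p50 subunit, stood at -1.40 ± 0.25 with 1-361 and -0.93 ± 0.23 with 362-549 (adjusted p = 0.874). Commd1, whose product promotes removal of p65 from DNA, stood at 2.17 ± 0.04 and 2.74 ± 0.14, with an adjusted p of 0.277 in limma and of 0.0350 with the round as a block.

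Of 45 tested NF-κB targets 1 was called, the oxidised LDL receptor gene Olr1, against 0.629% of all genes, and the list's median difference was 0.13. In 12 of the 45 the fragments' arrays did not overlap, against 10.5% of all genes. Olr1 stood at -2.87, -2.87 and -3.55 with 1-361 and at -4.78, -4.41 and -4.39 with 362-549, where 1 of 3 arrays was well above background. The 1-361 arrays were all higher (difference 1.43 ± 0.28, adjusted p = 0.0274), a call lost with the slide as a block and in 5 of the 6 fits that leave out 1 array, all but the fit without 1-361 replicate 3 (largest adjusted p = 0.156). The IκBα gene Nfkbia, which NF-κB induces and which restrains it, stood at 4.01, 3.73 and 4.33 against 3.45, 3.13 and 4.07. Those groups overlap, and the difference was 0.48 ± 0.23 (adjusted p = 0.933). Tnfaip3, which encodes the feedback inhibitor A20, stood at -1.98, -2.02 and -2.19 against -2.39, -2.48 and -1.74, a difference of 0.14 ± 0.25 (adjusted p = 1). Il6 and Icam1 also overlapped, with differences of 0.36 ± 0.32 and 0.31 ± 0.28 (adjusted p = 1 for each). Lta did not overlap (-4.21, -4.39 and -3.99 against -4.42, -5.24 and -4.53), but it was well above background on 1 array of 6 and was not called (adjusted p = 1).

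The round block moved the target list from 1 call to 7 of 45, against 1.7% of all genes under that block, and 6 of them were higher with 1-361, against 0.905%. The added genes higher with 1-361 were the chemokine gene Ccl3 (at least 1.70-fold, adjusted p = 0.00113), the anti-apoptotic Bcl2a1d (0.89 ± 0.15, 0.0113), the adaptor Traf1 (0.86 ± 0.18, 0.0319), Tnf itself (0.58 ± 0.12, 0.0350) and the gelatinase Mmp9 (1.11 ± 0.24, 0.0437, with 1 of 3 arrays well above background in 362-549). Without the block their adjusted p-values in limma ran from 0.0564 for Ccl3 to 0.929 for Tnf. Ccl3 stood at -3.75, -4.00 and -3.87 with 1-361 and at -5.40, -5.22 and -5.03 with 362-549, not well above background on any 362-549 array. The chemokine gene Ccl5 went the other way, between -3.03 and -2.92 on the 3 arrays with 1-361 and at -1.63, -1.81 and -1.68 with 362-549. The fragments' arrays do not overlap, and the difference of -1.28 had an adjusted p in limma of 0.121 without the block and of 0.00841 with it. The slide as a block left no call in this list.

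Genes for 2 chains of the high-affinity IgE receptor of mast cells and basophils were called in opposite directions. Of 18 tested mast cell and basophil genes 3 were higher with 1-361 (Fcer1g, Mcpt4 and Il13) and 1 was higher with 362-549 (Fcer1a), against 0.629% called over all genes, and the median difference was 0.15. With normexp background correction Fcer1g alone of these was called. Fcer1g, at chr1:173159794-173159853 (mm9), encodes the γ chain, a signalling adaptor shared by this receptor, activating IgG receptors and several lectin receptors. It stood at 3.72, 3.57 and 3.49 with 1-361 and at 0.33, 0.87 and 0.78 with 362-549. All 1-361 arrays were far above all 362-549 arrays, by 2.93 ± 0.21 (adjusted p = 2.13e-06), and by 2.61 within the shared slide. Fcer1a, at chr1:175151438-175151497, encodes the IgE-binding α chain, and stood at -3.72, -3.39 and -3.01 with 362-549. With 1-361 it was not well above background on any array (-6.09, -6.81 and -5.67), so that 362-549 was at least 2.63-fold higher (adjusted p = 0.000189).

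The chymase gene Mcpt4 rose with 1-361, at 0.44, -0.19 and 0.08 against -2.54, -1.80 and -2.19 (2.29 ± 0.37, adjusted p = 0.00641). Il13, the gene of a type 2 cytokine, was well above background on all 1-361 arrays (-3.35, -2.88 and -4.38) and on no 362-549 array, at least 2.16-fold higher with 1-361 (adjusted p = 0.0291). That call was lost without 1-361 replicate 1 or 2 or 362-549 replicate 1 or 3 (largest adjusted p = 0.164) and with the slide as a block. The carboxypeptidase gene Cpa3 leaned the other way without a call (-0.97 ± 0.39 with 1-361 and 0.10 ± 0.41 with 362-549, adjusted p = 0.488). With the round as a block the chymase gene Cma1 was called as well (1.00 ± 0.22, adjusted p = 0.0479), against 1.7% of all genes under that block. Of 10 marker genes of mast cells or basophils on the array, Kit, Ms4a2 and Prss34 were not well above background on any of the 6 arrays. The summed level of the tested markers, in multiples of the 75th percentile, was 6.16 to 10.4 with 1-361 and 3.42 to 5.71 with 362-549. This sum adds unlogged levels and includes the called Fcer1a and Mcpt4. The part of a changed share of such cells was not tested, and in bulk RNA fewer cells of a type and less RNA per cell cannot be told apart.

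Genes of 2 pattern receptors of myeloid cells were higher with 1-361. Of 32 tested granulocyte and macrophage effector genes 3 were higher with 1-361 (against 0.4% of all genes), 1 was higher with 362-549 (against 0.229%), and the median difference was 0.28. With normexp background correction Clec4e alone of these was called. Clec4e, which encodes the glycolipid receptor Mincle that signals through the Fcer1g chain, stood at 1.92, 1.42 and 1.31 against -0.28, 0.02 and 0.05, a difference of 1.62 ± 0.23 (adjusted p = 0.00191). Clec7a, the gene of the β-glucan receptor dectin-1, was well above background on all 1-361 arrays (-4.04, -4.01 and -3.07) and on no 362-549 array (-6.00, -6.48 and -6.48), at least 1.92-fold higher (adjusted p = 0.000208). Acod1, whose enzyme makes itaconate in activated macrophages, behaved alike at -3.49, -3.63 and -3.84 against -6.20, -6.51 and -6.73. It was at least 1.99-fold higher with 1-361 (adjusted p = 4.91e-06), and no 362-549 array had it well above background. Adgre1, the gene of a macrophage surface antigen, was higher with 362-549 (-1.09, -0.72 and -0.40 against -2.10, -2.21 and -2.39; adjusted p = 0.0132). That call was lost without replicate 2 or 3 of either fragment (largest adjusted p = 0.0772) and with the slide as a block.

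The round block added 4 genes of that list on the 1-361 side, making 7, with 1 on the other, against 1.7% of all genes called under that block. They were Chil3 (1.20 ± 0.22, adjusted p = 0.0160), Clec4d (0.49 ± 0.10, 0.0227), Pilrb1 (adjusted p = 0.00295, well above background on 1 of 3 arrays with 1-361 and on none with 362-549) and Mmp9, already given. Clec4d encodes a partner of Mincle. Among macrophage or monocyte markers Cd14, C1qa and Mrc1 were not well above background on any of the 6 arrays, and the summed level of those tested was 3.87 to 4.29 with 1-361 and 2.53 to 4.40 with 362-549. The 11 tested stefin and cystatin genes, which encode cysteine protease inhibitors, all had a positive difference, with a median of 0.28. None was called, against 0.629% of all genes. With the round block Csta2 was called (0.82 ± 0.18, adjusted p = 0.0447), against 1.7% of all genes under that block.

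The platelet chemokine genes Pf4 and Ppbp, neighbours on chromosome 5, were both higher with 1-361. Pf4, at chr5:91202275-91202334 (mm9), encodes platelet factor 4 and stood at 6.02, 5.79 and 5.73 with 1-361 and at 3.87, 4.13 and 3.98 with 362-549. No array of the fragments overlapped, and the difference was 1.85 ± 0.22 (adjusted p = 0.000286). Ppbp, at chr5:91198970-91199029, encodes pro-platelet basic protein and stood at 3.50, 3.71 and 3.27 against -0.26, 0.64 and 0.66. Its difference was 3.14 ± 0.55 (adjusted p = 0.0127), a call lost without 1-361 replicate 1, 1-361 replicate 2 or 362-549 replicate 1 (largest adjusted p = 0.0773) and with the slide as a block. Of 7 tested megakaryocyte markers these were the 2 called, against 0.629% of all genes, and all 7 had a positive difference. The summed level of these markers was 84.6 to 107.1 with 1-361 and 36.6 to 43.2 with 362-549. The sum adds unlogged levels, so this gap comes mostly from Pf4 and Ppbp, the called genes, and is not a separate observation. The part of a changed share of such cells was not tested. Of 20 tested chemokine and chemokine receptor genes Ccl17 was the other call, against 0.629% called over all genes. Ccl17, which attracts T cells through Ccr4, was higher with 362-549 (-2.32, -2.38 and -2.17 against -2.84, -3.13 and -3.18, adjusted p = 0.0367 by limma). Its call was lost with the slide as a block and in all fits that leave out 1 array but that without 1-361 replicate 1 (largest adjusted p = 0.180).

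Since both genes moved together, the 250 bases before each start are shown, from RefSeq promoters of build GRCm38.p6, 5′ to 3′ on the gene's strand, with the TATA letters TATAAA in capitals where they occur:
Pf4, chr5:90772185-90772434, plus strand: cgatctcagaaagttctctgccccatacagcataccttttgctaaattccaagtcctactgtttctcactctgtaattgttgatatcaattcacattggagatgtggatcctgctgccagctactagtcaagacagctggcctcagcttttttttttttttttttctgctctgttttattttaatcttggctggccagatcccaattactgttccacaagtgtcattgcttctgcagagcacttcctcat
Ppbp, chr5:90768268-90768517, plus strand: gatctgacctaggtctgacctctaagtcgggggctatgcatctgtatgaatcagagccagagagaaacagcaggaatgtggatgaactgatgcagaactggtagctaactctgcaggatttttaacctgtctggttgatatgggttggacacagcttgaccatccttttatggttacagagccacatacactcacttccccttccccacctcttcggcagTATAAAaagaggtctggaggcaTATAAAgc
The search covered both strands for TATAAA, for the GATA letters AGATAA and for the CACCC box letters CCNCNCCC, and the motifs could overlap. Ppbp holds TATAAA at 2 places in this window and Pf4 holds none of the 3 motifs. In windows of this length TATAAA occurs in 14.3% of 27025 genes with a promoter, and in 8.48% of those tested here.

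Adult β-globin genes were higher with 362-549. Of 24 tested globin and heme synthesis genes 2 were called, both higher with 362-549, against 0.229% of all genes. The median difference was -0.14. Hbb-bt, at chr7:110961105-110961164 (mm9), stood at 4.47, 4.97 and 5.16 with 362-549 and at 2.53, 2.34 and 2.81 with 1-361. The groups lay apart by 2.31 ± 0.34 on the log2 scale, higher with 362-549 (adjusted p = 0.00287). The probe named Hbb-b2 gave 3.24, 3.58 and 3.71 against 1.16, 0.70 and 1.31 (adjusted p = 0.00191), again with no overlap. Adult β-globin copies are nearly identical, so these probes may share transcripts and count as 1 observation. Another copy, Hbb-bs, gave -0.54, 0.06 and 0.11 against -2.53, -3.13 and -2.63, with an adjusted p of 0.102 in limma and of 0.0102 with the round as a block. The embryonic gene Hbb-bh1 overlapped between the fragments (0.46, -0.18 and 0.41 with 1-361, -0.39, 0.02 and 0.59 with 362-549; adjusted p = 1).

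Klf1, which encodes the erythroid factor that binds the CACCC box of the adult β-globin promoter, was also higher with 362-549. It stood at 1.41, 1.53 and 1.19 against 0.63, 0.24 and 0.55, a difference of -0.91 ± 0.19 for 1-361 minus 362-549 (adjusted p = 0.0465). That call was lost in all 6 fits without 1 array (adjusted p from 0.0767 to 0.253) and with the slide as a block. Among erythroid markers Slc4a1, Alas2 and Ahsp were not well above background on any of the 6 arrays. The summed level of the 5 tested was 35.6 to 37.9 with 1-361 and 44.2 to 86.2 with 362-549. The sum adds unlogged levels and includes the called Hbb-bt and Klf1, so it is not a separate observation. The part of a changed share of erythroid cells was not tested.

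The promoters of these β-globin copies are shown because the CACCC box is the site Klf1 binds, from the same RefSeq table, with CCNCNCCC, AGATAA and TATAAA in capitals:
Hbb-bt, chr7:103813924-103814173, minus strand: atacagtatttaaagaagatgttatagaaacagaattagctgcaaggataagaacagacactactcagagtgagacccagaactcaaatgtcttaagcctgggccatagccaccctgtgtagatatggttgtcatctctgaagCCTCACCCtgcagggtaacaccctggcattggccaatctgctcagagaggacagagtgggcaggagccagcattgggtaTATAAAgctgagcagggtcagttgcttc
Hbb-bs, chr7:103827929-103828178, minus strand: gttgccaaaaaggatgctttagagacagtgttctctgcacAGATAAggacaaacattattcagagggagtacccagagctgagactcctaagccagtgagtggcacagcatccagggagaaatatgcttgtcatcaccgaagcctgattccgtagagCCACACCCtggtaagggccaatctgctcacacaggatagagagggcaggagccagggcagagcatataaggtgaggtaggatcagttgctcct
Hbb-bt holds the CACCC letters at position -107 and TATAAA at -28, counted from the start of the gene to the first base of the match. Hbb-bs holds the CACCC letters at -93 and AGATAA at -210. In windows of this length CCNCNCCC occurs in 48.5% and AGATAA in 11.4% of all genes with a promoter. Among the genes tested here the shares are 65.1% and 7.83%, and neither motif was tested for binding.

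The largest differences in each direction rested on single probes at Nsd1 and Epb41l3. Nsd1, the gene of a histone H3 lysine 36 methyltransferase, gave 3.43, 3.84 and 3.95 with 1-361 and -6.59, -6.43 and -6.64 with 362-549, where no array was well above background. It was at least 334-fold higher with 1-361 (adjusted p = 9.03e-10) at chr13:55419594-55419653 (mm9). A second Nsd1 probe, aligned between chr13:55335377 and 55340095, was not well above background on any of the 17 arrays, so the difference rests on 1 of the 2 probes. Of 48 tested histone methyltransferase and demethylase genes Nsd1 was the one called, against 0.629% of all genes. Nsd1 passed the filter on dim probes through 1-361, where it is high, so that count is partly set by the filter. Epb41l3, whose product links the membrane to the spectrin and actin skeleton, gave 4.95, 4.79 and 5.02 with 362-549 and -5.69, -7.12 and -5.70 with 1-361. It was at least 825-fold higher with 362-549 (adjusted p = 4.51e-05), and no 1-361 array had it well above background. Of 22 tested erythroid regulator and membrane skeleton genes, Epb41l3 and Klf1 were called, against 0.629% of all genes. Epb41l3 passed the filter on dim probes through 362-549, where it is high, so this count too is partly set by the filter.

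Extracellular matrix genes were called in both directions, each above background with 1 fragment and not with the other. Of 50 listed 18 were tested, and 3 were called higher with 1-361 and 1 with 362-549, against 0.629% of all genes. None of them was called with normexp background correction. Col4a5, Ogn and Fndc4 passed the filter on dim probes through the fragment where they are high, so the count is partly set by the filter. Col4a5, a collagen IV chain of basement membranes, gave -0.89, -0.84 and -0.71 with 1-361 and -6.96, -6.63 and -6.87 with 362-549, at least 14.2-fold higher (adjusted p = 9.03e-10). Ogn, a small proteoglycan, was at least 5.12-fold higher with 1-361 (-2.48, -2.18 and -2.21 against -6.73, -6.49 and -6.44). Itih3, a heavy chain that attaches to hyaluronan, was at least 1.42-fold higher with 1-361 (-4.30, -4.30 and -3.80 against -5.83, -6.62 and -6.54). Fndc4, a secreted fibronectin type III protein, was at least 11.8-fold higher with 362-549 (-1.40, -1.38 and -0.86 against -6.58, -7.05 and -6.82). A second Fndc4 probe that overlaps the first, at chr5:31595210-31595269, was not well above background on any of the 17 arrays. Markers of fibroblasts and stroma could not be summed because none of 8 passed the filter on dim probes, and 6 of them were not well above background on any of the 6 arrays.

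Further single genes complete the largest called differences. With 1-361, Rab11fip5 (a recycling endosome adaptor) was at least 9.16-fold higher (a call lost with the slide as a block), Mapre3 (a microtubule end-binding protein) at least 3.81-fold, Smco4 at least 2.43-fold and Plaat5 (a phospholipid acyltransferase) at least 2.00-fold. Podnl1, a leucine-rich repeat protein, gave 0.98, 0.72 and 1.07 against -1.80, -2.24 and -2.08, well above background on all 6 arrays (2.96 ± 0.24, adjusted p = 7.51e-06). With 362-549, Olfr165 (an olfactory receptor gene) was at least 3.62-fold higher, Sez6 at least 1.75-fold and Tekt1 (a ciliary protein) at least 1.59-fold. Rab11fip5, Plaat5, Olfr165 and Sez6 passed the filter on dim probes through the fragment where they are high. Spata21, Lpgat1 (a lysophospholipid acyltransferase) and Fam20a were higher with 362-549 by 1.93 ± 0.39, 1.92 ± 0.37 and 1.61 ± 0.34. Those last 3 calls, with adjusted p-values of 0.0367, 0.0274 and 0.0428, were lost with the slide as a block. Without 1 array, Spata21 was called in the fit without 362-549 replicate 3 and in no other (largest adjusted p = 0.192), and Fam20a in none (0.188). Lpgat1 was called without replicate 3 of either fragment and in no other such fit (0.164). Sez6 was called in the fit without 1-361 replicate 3 alone (largest adjusted p = 0.129), and Tekt1 in that without 1-361 replicate 1 alone (0.118).

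**Figure D2:**
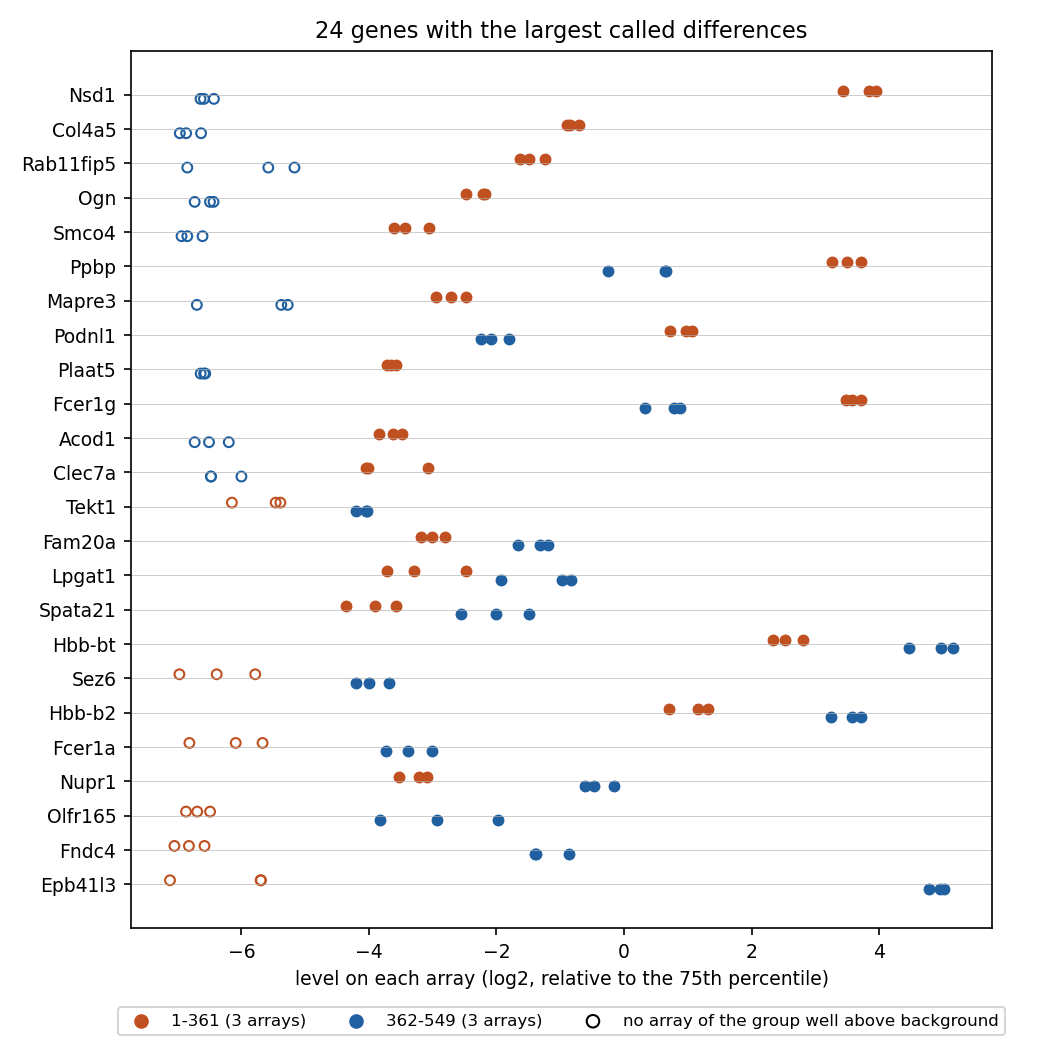
Level on each of the 6 arrays (log2, relative to the 75th percentile) for the 24 genes with the largest called differences, 12 in each direction; orange is 1-361, blue is 362-549, and open circles mark a group with no array well above background. The 24 genes were chosen among called genes whose arrays do not overlap between the fragments, so the separation shown is part of the choice. For Fcer1g the arrays ran from 3.49 to 3.72 against 0.33 to 0.87.

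Nupr1, a small chromatin protein of the stress response, was higher with 362-549. It stood at -0.47, -0.62 and -0.16 with 362-549 and at -3.21, -3.53 and -3.09 with 1-361, a gap of 2.86 ± 0.30 on the log2 scale (adjusted p = 0.000119). The integrated stress response is the program run by the translation factor eIF2α and Atf4. Of its 35 tested genes Nupr1 was the one called, against 0.629% of all genes. The list median was -0.17, with 29 negative differences. With the round as a block the transsulfuration enzyme gene Cth was called too (-1.41 ± 0.23, adjusted p = 0.00801, with 1 of 3 arrays well above background in 1-361). Under that block 1.7% of all genes were called. Socs3, a feedback inhibitor of cytokine receptors induced by STAT proteins, was higher with 362-549 (1.17, 1.27 and 1.52 against 0.36, 0.36 and 0.45, adjusted p = 0.0103 by limma). It was the 1 call among 24 tested STAT5 and Bcr-Abl output genes, against 0.629% of all genes. Its call was lost without 1-361 replicate 1, 1-361 replicate 2 or 362-549 replicate 3 (largest adjusted p = 0.0591) and with the slide as a block. The round block added Socs1 (-1.02 ± 0.16, adjusted p = 0.00635) and the cytokine gene Osm (-0.99 ± 0.20, 0.0250), also higher with 362-549, against 1.7% of all genes called under that block.

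Survival, interferon and growth genes gave few or no calls. Of 30 tested BCL2 family, caspase and inhibitor of apoptosis genes none was called. Over all genes 0.629% were called, a share at which a list of this size may hold none. The anti-apoptotic gene Bcl2 stood at 3.06, 3.62 and 3.25 with 1-361 and at 4.25, 4.09 and 4.87 with 362-549. Its groups do not overlap, and the difference of -1.09 had an adjusted p of 0.0984 in limma and of 0.000626 with the round as a block. None of 46 interferon-stimulated genes was called, against 0.629% of all genes. With the block Ifitm1 (-0.65, adjusted p = 0.00192), Isg20 (1.03, 0.00255) and Gbp2 (adjusted p = 0.000642) were called, against 1.7% of all genes under that block. Gbp2 was not well above background on any of the 6 arrays. Of 34 cholesterol and fatty acid synthesis genes Lpgat1 and the malic enzyme gene Me1 were called, in opposite directions, against 0.629% of all genes. Me1 gave 1.71, 1.91 and 1.76 with 1-361 against 1.01, 1.00 and 1.00 with 362-549 (adjusted p = 0.0417 by limma). The call of Me1 was lost in all 6 fits without 1 array (adjusted p from 0.121 to 0.202).

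No gene was called among 47 cell cycle, 29 unfolded protein response, 32 glycolysis and hypoxia, 23 p53 target, 18 immediate early, 24 integrin and adhesion, 33 haematopoietic transcription factor, 22 TNF family and 25 antigen presentation genes. Their median differences lay between -0.11 and 0.16. Over all genes 0.629% were called, a share at which lists of these sizes hold few calls or none. Il13 was the 1 call among 23 interleukin and colony-stimulating factor genes, against 0.629% of all genes. With the round as a block, Tnf was called in the TNF family, the common γ chain gene Il2rg among the interleukin genes (0.79 ± 0.16, adjusted p = 0.0279) and Ikzf4 among the transcription factors (-0.60 ± 0.11, 0.0208). Under that block 1.7% of all genes were called, so single calls in lists of this size say little about the lists.

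**Figure D3:**
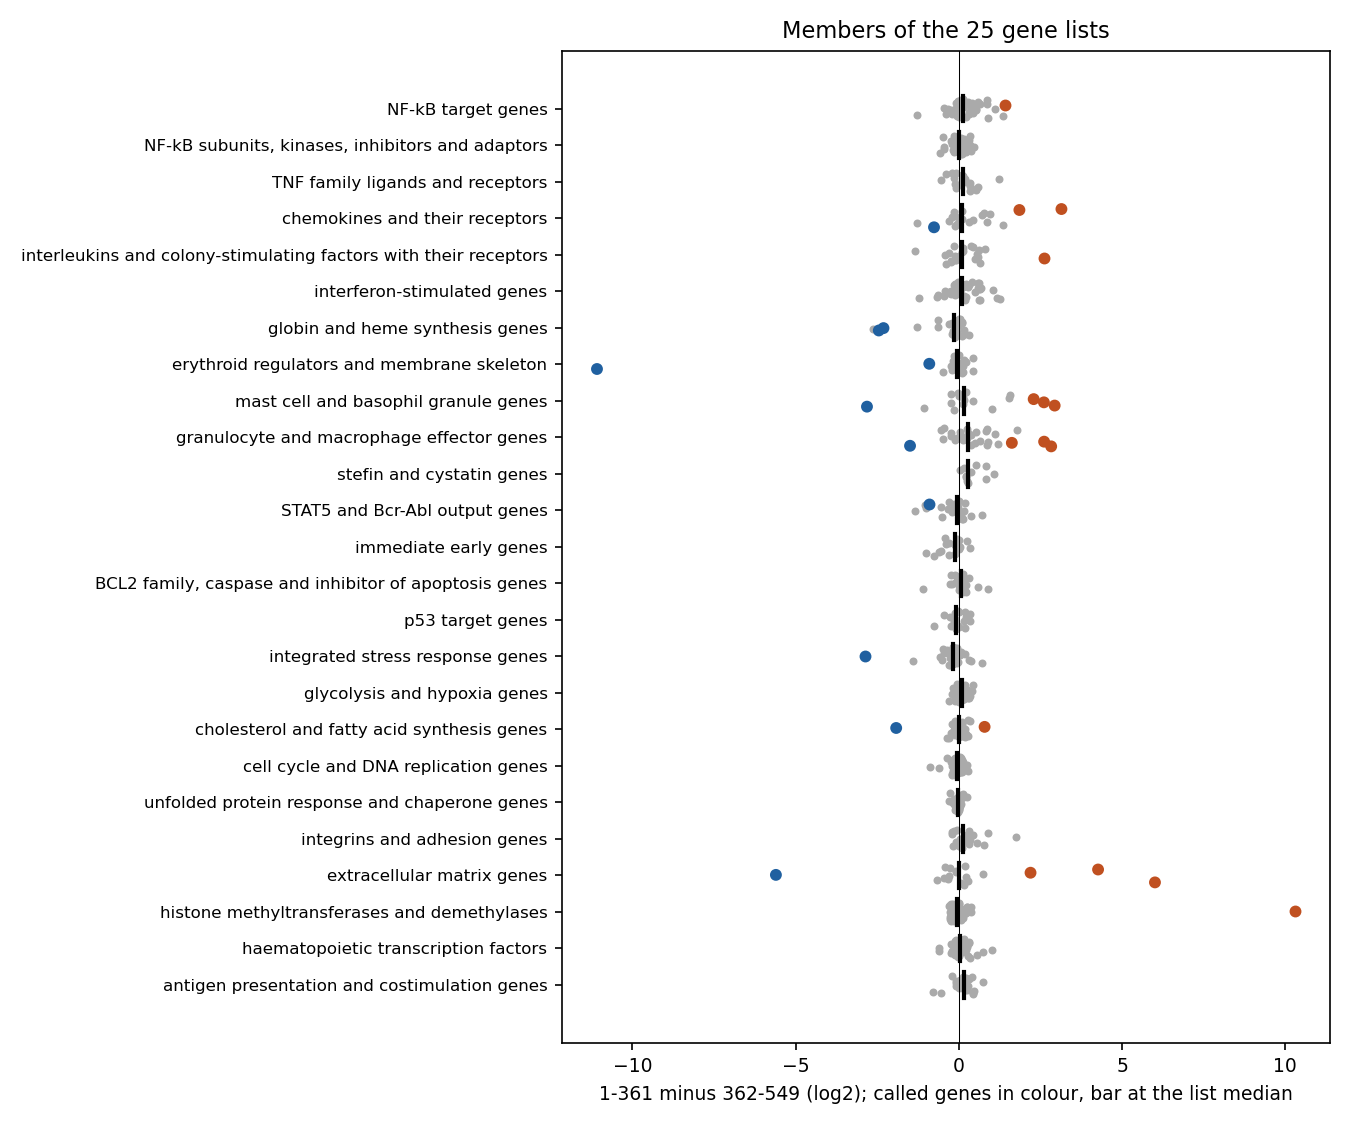
Difference between the fragments (1-361 minus 362-549, log2) for the tested members of 25 gene lists, 1 point a gene; called genes are orange (higher with 1-361) or blue (higher with 362-549), and the black bar is the list median. Medians lie between -0.17 and 0.28, and the called genes stand out singly from lists centred near 0.

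The other constructs place the called genes. Comparisons with WT use the same fragment arrays as above and share the WT arrays, so they are given side by side. Against WT, 109 genes were called with 1-361 (0.715%) and 109 with 362-549 (0.715%). Of the 61 genes higher with 1-361, 25 were called against WT in 1-361 alone, 22 in 362-549 alone, 4 in both and 10 in neither. Of the 35 higher with 362-549 the counts were 11, 9, 3 and 12. Fcer1g is of the first kind: its WT mean was 1.03 ± 0.13 (SD, n = 4), 1-361 lay 2.57 above it (adjusted p = 3.27e-06) and 362-549 lay at -0.37 (adjusted p = 0.685). Acod1 is of the second: 1-361 lay at -0.46 from WT (adjusted p = 0.632), and WT was at least 2.75-fold above 362-549 (adjusted p = 3.81e-07). Hbb-bt rose against WT with each fragment, by 3.16 with 1-361 and 5.47 with 362-549 (adjusted p = 4.95e-05 and 1.78e-07). Itih3 fell with each, by 3.83 with 1-361, and was at least 20.2-fold lower with 362-549 than in WT.

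Against WT, Tnfaip3 fell by 1.78 with 1-361 and by 1.92 with 362-549 (adjusted p = 0.000812 and 0.000508), and Nfkbia fell by 1.01 and by 1.48 (adjusted p = 0.0442 and 0.00193). Their differences between the fragments, given above, were smaller than either. Nupr1 fell with 1-361 by 2.53 (adjusted p = 0.000133) and stood 0.33 above WT with 362-549 (adjusted p = 0.867), and Fcer1a was at least 2.31-fold below WT with 1-361 (adjusted p = 0.000125).

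The cells with both fragments differed from each fragment alone at more genes than the fragments did from each other. These comparisons share the fragment arrays. Against 1-361 alone 1701 genes were called in them (11.2%) and against 362-549 alone 2223 (14.6%). At the called genes their mean was nearer to 1-361 for 29 of the 61 genes higher with 1-361 and for 30 of the 35 higher with 362-549. Fcer1g stood at -3.95 ± 0.52 (SD, n = 3) with both fragments, below each fragment alone (adjusted p = 6.86e-12 and 2.52e-09). Pf4 stood at 6.88 ± 0.34 with both, above each fragment alone (adjusted p = 0.00768 and 5.58e-07). Nsd1, Col4a5, Epb41l3 and Fndc4, each above background with 1 fragment and not with the other, were not well above background on any array with both. Nupr1 with both fragments was at -3.34 ± 0.19, next to 1-361 (adjusted p = 0.902 for that difference).

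**Figure D4:**
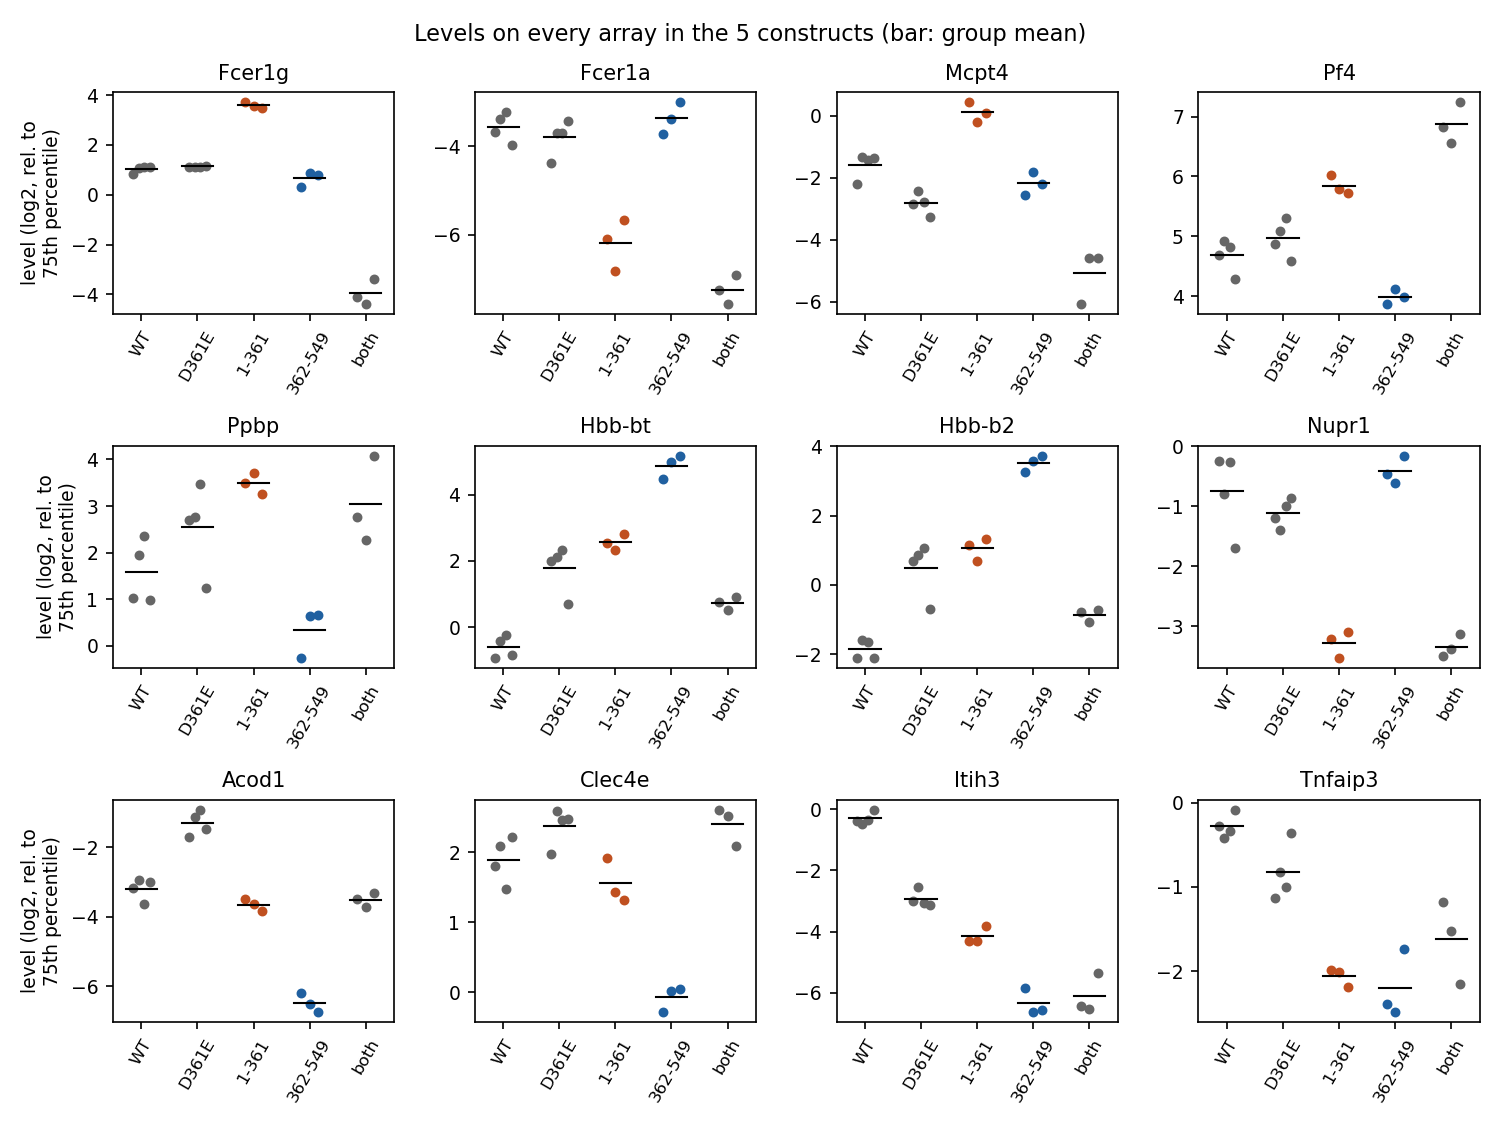
Level on every array (log2, relative to the 75th percentile) of 12 genes in the 5 constructs, with "both" for 1-361+362-549; points are arrays, bars are group means, and each panel has its own scale. Fcer1g is highest with 1-361 (mean 3.59) and lowest with both fragments (-3.95), Hbb-bt is highest with 362-549 (4.87), and Tnfaip3 is near -2.06 and -2.20 with the fragments against -0.28 in WT.

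κB sites, the DNA letters bound by NF-κB, were sought by the κB consensus on both strands in the 250 bases before each start. Promoters were found in the RefSeq table for 64 of the 96 called genes. The consensus occurred in 2 of 37 with a gene higher with 1-361 (Atp9a and Gpr132) and in 4 of 27 with a gene higher with 362-549 (Fam20a, Flywch2, Rasgrp2 and Spata21), against 8.23% of all 27025 genes and 10.4% of those tested here. One promoter of each direction is shown, chosen after the values were seen, with the κB match in capitals:
Gpr132, chr12:112860917-112861166, minus strand: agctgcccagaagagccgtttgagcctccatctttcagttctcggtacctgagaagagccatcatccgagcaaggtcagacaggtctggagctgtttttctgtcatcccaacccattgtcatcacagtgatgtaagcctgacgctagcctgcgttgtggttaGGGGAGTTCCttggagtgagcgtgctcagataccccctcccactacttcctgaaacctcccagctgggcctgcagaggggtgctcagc
Rasgrp2, chr19:6399625-6399874, plus strand: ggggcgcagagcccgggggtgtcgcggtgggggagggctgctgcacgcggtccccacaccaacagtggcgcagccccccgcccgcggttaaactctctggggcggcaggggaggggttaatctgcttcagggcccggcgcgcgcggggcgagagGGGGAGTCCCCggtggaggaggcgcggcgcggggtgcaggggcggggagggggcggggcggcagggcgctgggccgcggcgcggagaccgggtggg
Gpr132, a receptor of oxidised fatty acids on myeloid cells, stood at -3.44, -2.90 and -3.16 with 1-361 and at -4.65, -5.18 and -5.17 with 362-549 (1.83 ± 0.24, adjusted p = 0.000834), where 1 of 3 arrays was well above background, and the call was lost with the slide as a block. Rasgrp2, an exchange factor for Rap1 in platelets, stood at 2.67, 2.81 and 2.91 against 3.53, 3.25 and 3.43 (-0.61 ± 0.12, adjusted p = 0.0310). That call was lost with the slide as a block and in all fits without 1 array but that without 362-549 replicate 2. In Rasgrp2 the consensus matches overlap each other on both strands. A match describes these letters only, and no binding was measured.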

How the data were processed

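Groups came from the source name of each sample, and the gene lists were chosen with earlier results of these data known. The deposited scanner files give the intensity of each spot, unlogged. Per the file headers they came from Agilent Feature Extraction 10.7.3.1, also named in the submitters' processing notes, with protocol GE1_107_Sep09, design 026655 and probe coordinates on mm9; the deposited table of the series equals the processed signal. Processed signals were turned to log2 and each array's 75th percentile was subtracted. Control spots and outlier spots were left out, spots of 1 probe averaged, and a probe kept when some group had it well above background on all its arrays (19769 of 39429 probes). The brightest kept probe stood for a gene, named through RefSeq (GRCm38.p6, names only) for 27508 probes. limma 3.58.1 (R 4.3.3) was fitted over all 17 arrays and 5 groups, with Benjamini-Hochberg adjustment. A lower bound ("at least") sets the bright group's mean against the lowest signal among probes well above background on each dim array, or the probe's own signal where that was higher.

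The genes named were the targeted gene and, in each direction, the 12 with ordinary symbols and the largest called difference whose arrays do not overlap. The called genes of each list or, with none called, the one of smallest p, and a fixed panel were named as well. Other names were chosen after their values were seen. Sample titles carry running numbers that form rounds. Between the fragments, deviations of arrays from their group mean correlated at 0.624, 0.566 and 0.714 within a round. Between different rounds they correlated at no more than -0.06, but deviations from a group mean cancel within the group, which pushes these values down. The rounds were taken as pairs from the titles and from these same data. The fit with them as a block is given where it changes a call. On simulated data of this comparison over 15254 genes, the test recovered 47% of genes changed by 1 and 88% of genes changed by 2 on the log2 scale. It made 12 false calls there. The number of arrays limits the precision. Some marker genes are not reported here.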

Additional observations from a re-analysis of the deposited data

Results flagged for a closer look

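One group of 4 arrays had an array apart from the others by Dixon's criterion, among 48 such checks over 24 genes in the WT and D361E groups; about 1 check in 20 is marked by chance. Fcer1g on D361E replicate 4 stood at 1.17 where the nearest array stood at 1.13 and the lowest at 1.12, so that the gap took 0.919 of the range. The whole range is small beside the distance of this gene between 1-361 and 362-549.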

How the results depend on the processing

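The 96 genes called (61 higher with 1-361, 35 higher with 362-549) depended on the settings as follows. Normexp background correction left 13 (9 and 4), and a filter for probes well above background on all 17 arrays left 41 (26 and 15), with 52 of the 96 still tested. With the slide as a fixed block there were 35 (22 and 13), and with only the 6 arrays in the fit 60, of which 18 were higher with 362-549. The title round as a replicate block, the paired fit, gave 260 (138 and 122). Without a filter on dim probes 40 were higher with 1-361, and without scaling 14 were higher with 362-549; there 78.8% of calls were higher with 1-361 against 63.5%, and the median over all genes moved to 0.17. Without 1 replicate the count ran from 48 to 67, from 31 to 44 higher with 1-361 and from 17 to 23 higher with 362-549. Quantile normalization, the mean of all kept probes, the slide as a random block, trend and robust settings, the filter on the fragments' own arrays and, an alternative chosen after seeing the data, leaving out the 1-361+362-549 arrays gave 77 to 100. The cause of these changes was not tested.

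Uncalled differences that turned sign were those of Rela without scaling (0.14) and with normexp (0.014), and those of Ddit4 (-0.0707 to 0.54) and Hbb-bh1 (-0.0785 to 0.41) with 1 replicate left out, negative without 362-549 replicate 1. Calls of 9 genes held in all 19 refits (Clec4e, Fcer1g, Gmfg, Hbb-b2, Hbb-bt, Lilr4b, Nupr1, Pf4 and Podnl1). Most called genes with several kept probes had the same sign in all of them (15 of 18). Signals near background limit the genes given as lower bounds.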

Other observations

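Some called genes outside the lists are given here, chosen after their values were seen. Lilr4b, an inhibitory leukocyte receptor gene, stood at 3.05, 3.28 and 2.96 with 1-361 and at 0.13, 0.88 and 1.10 with 362-549 (2.39 ± 0.37, limma adjusted p = 0.00472). Gmfg, which encodes a regulator of branched actin in blood cells, stood at 3.63, 3.76 and 3.28 against 1.88, 1.67 and 2.03 (1.70 ± 0.19, adjusted p = 0.000208). Ets2, the gene of an ETS family transcription factor, stood at 0.96, 0.90 and 0.98 against -0.19, 0.06 and 0.10 (0.96 ± 0.12, adjusted p = 0.000834). The call of Ets2 was lost with the slide as a block. For these genes all 1-361 arrays lay above all 362-549 arrays.

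Itih4 and Itih3, neighbours on chromosome 14 that encode related serum proteins, were called in opposite directions. Itih4 (chr14:31714970-31715029, mm9) stood at -1.99, -1.94 and -1.87 with 1-361 and at -0.69, -0.95 and -0.96 with 362-549 (-1.06 ± 0.13, adjusted p = 0.000739), whereas Itih3 (chr14:31721835-31721894) was higher with 1-361. Padi4, which encodes the enzyme that citrullinates histones in granulocytes, was higher with 362-549 (-3.23, -2.88 and -2.93 with 1-361, -1.52, -1.33 and -1.53 with 362-549; adjusted p = 0.00903). That call was lost with the slide as a block and without 1-361 replicate 1 or 362-549 replicate 2.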
